A study of Pyrus x bretschneideri with 2 samples.

Results

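The 6 pear genes described here were an ACC synthase pair, which makes the precursor of the hormone ethylene, and 4 genes of ethylene response factors (ERF), out of 45022 genes in the deposited table of expression levels. They were picked by identifier, with names from the authors' deposited annotation: Pbr036692 and Pbr002233 (1-aminocyclopropane-1-carboxylate synthase-like, the enzyme abbreviated to ACC synthase), Pbr023044 (ethylene-responsive transcription factor 1B-like, here ERF1B-like), Pbr011103 (ERF098-like), Pbr037846 (ERF113-like) and Pbr010139 (ERF114-like). All 6 are in the authors' deposited table of genes that differ between the libraries, which calls 0.318% of all genes higher and 0.529% lower with the yeast, and they were chosen with these differences known. Their differences between the libraries are therefore a description, and none was tested.

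RNA came from tissue around wounds in fruit of Pyrus x bretschneideri. One library was made from fruit given sterile distilled water, and 1 from fruit given the yeast Meyerozyma guilliermondii, which is studied for the biological control of fruit rots. Both were kept for 3 days at 20 °C. The cultivar, the age of the fruit and the number of fruit behind each library are not stated in the labels. With 1 library per treatment no difference has a replicate check, so what the treatment did and how 2 libraries differ anyway cannot be told apart.

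Plants make ethylene in a short pathway. S-adenosylmethionine synthase supplies S-adenosylmethionine, ACC synthase turns it into ACC, usually the limiting step, and ACC oxidase turns ACC into ethylene. In climacteric fruit such as pear this pathway drives ripening, and wounding and attack by microbes also switch it on. ERF proteins bind DNA through an AP2 domain, and many of them, though not all, act downstream of ethylene. In Arabidopsis they fall into groups by sequence: group IX, with ERF1B, ERF5 and ERF098, is known mainly from defence under ethylene and jasmonate, and group X, with ERF113 and ERF114, is known mainly from stress responses, growth and regeneration after wounding.

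Levels are the authors' FPKM values (sequenced fragments divided by gene length and library size, so that levels of different genes can be compared). Their sum was 692635 with water and 748043 with the yeast, and 21484 and 21495 genes reached 1 FPKM. The reads behind the 6 genes could be recovered from the authors' deposited log2 fold changes, which for 370 of the 381 genes of that table (97.1%) equalled the ratio of 2 whole numbers of reads, scaled for depth, to within 2e-09. On the authors' scale 1 read weighed 7.83 units with water and 8.18 with the yeast, a ratio of 1.05. Scaled for depth means here scaled by these weights. They were inferred from the deposited values and not from read totals, so they may hold more than depth. Intervals below are exact 95% intervals of the recovered read numbers. They cover counting error only, not the spread between fruit, which was not measured. Intervals of levels also take FPKM as proportional to these reads, which held only roughly. FPKM per read was 0.0135 with water and 0.0140 with the yeast for Pbr036692, and 0.0109 and 0.0127 for Pbr002233. For Pbr035788, a gene named further below, it was 0.0182 and 0.0109.

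Both ACC synthase genes were far lower in the yeast library, while the ERF genes divided. ERF1B-like and ERF098-like, of group IX, were lower with the yeast, and ERF113-like and ERF114-like, of group X, were higher. Past a 2-fold difference on the log2(FPKM + 1) scale lay 2 of the 6 genes on the higher side and 4 on the lower side. Over the 22603 genes that reached 1 FPKM in at least 1 library, the share past 2-fold was 3.32% on the higher side and 3.00% on the lower side. The 6 genes were chosen on this contrast, so their count says nothing beyond the choice. The scale understates differences of low genes. In tissue libraries such as these, fewer cells that express a gene and less RNA per cell cannot be told apart.

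**Figure D1:**
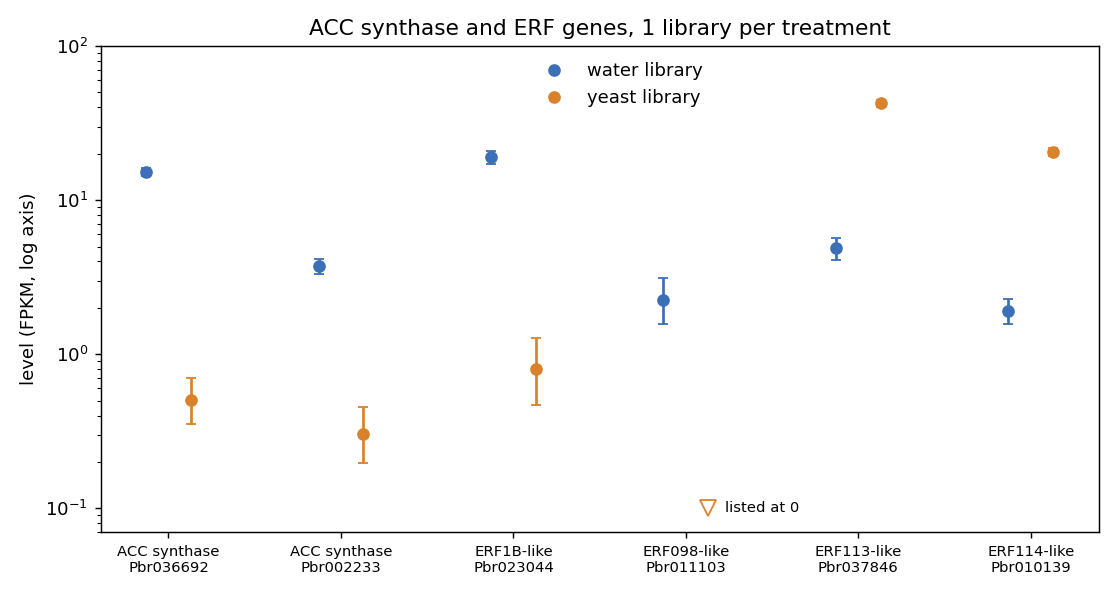
Level in FPKM (log axis) of the 6 genes in the water library (blue) and the yeast library (orange), 1 library each; bars are exact 95% Poisson intervals of the reads, counting error only, and the open triangle marks a gene listed at 0. The ACC synthase pair, ERF1B-like and ERF098-like were higher with water, and ERF113-like and ERF114-like were higher with the yeast. The genes were chosen for these differences, so bars of a gene that stand apart say nothing beyond the choice.

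The ACC synthase gene Pbr036692 stood at 15.2 FPKM in the water library, from 1127 reads, and at 0.504 FPKM in the yeast library, from 36 reads. Scaled for depth, it had 29.9 times as many reads with water as with the yeast (interval 21.5 to 43.0). It was the gene with the lowest adjusted p of the 6 in the authors' deposited table, where its log2 fold change was -4.90 and its adjusted p 2.93e-07. That p, like every p of the table, compares these 2 libraries and not the treatments. By level it ranked 7256 among all genes with water and 23482 with the yeast.

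Its partner Pbr002233 was a lower gene in both libraries, at 3.72 FPKM with water (342 reads) and 0.305 FPKM with the yeast (24 reads). It had 13.6 times as many reads with water (interval 9.01 to 21.6), and the authors' deposited log2 fold change was -3.76, with an adjusted p of 0.000230. The level of Pbr036692 was 4.09 times that of Pbr002233 with water and 1.65 times with the yeast, where the intervals of both levels overlapped (0.353 to 0.697 FPKM and 0.196 to 0.454 FPKM). Their summed level was 18.9 FPKM with water and 0.809 FPKM with the yeast, and Pbr036692 made up 80.3% of the former and 62.3% of the latter.

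The annotation makes both genes alike. Both have soybean ACS1 as their closest Swiss-Prot entry, and all 10 gene ontology terms of the one are those of the other, among them ethylene biosynthesis, fruit ripening and the responses to ethylene, abscisic acid and chitin. Reads that fit both genes are possible between such close relatives, and the treatment of shared reads is not given in the sources used here.

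ERF1B-like (Pbr023044) was the most abundant of the 6 genes with water, at 18.9 FPKM from 443 reads, and stood at 0.802 FPKM from 17 reads with the yeast. ERF1B is known in Arabidopsis as a factor that both ethylene and jasmonate switch on and that activates defence genes. The pear gene had 24.9 times as many reads with water (interval 15.4 to 43.2), and the authors' deposited log2 fold change was -4.63, with an adjusted p of 3.03e-06. Among the 22603 genes it had the 40th lowest log2 ratio, -3.47 on the log2(FPKM + 1) scale, and the ACC synthase gene Pbr036692 had the 43rd lowest, -3.43.

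ERF098-like (Pbr011103), whose Arabidopsis namesake is known from stress tolerance and ascorbate synthesis, was at 2.26 FPKM with water and listed at 0 with the yeast. The recovered reads were 36 with water and 0 with the yeast. With 3 reads put in place of the 0 as a floor, it was at least 11.5-fold lower with the yeast. This bound and those below take the reads of the other library as they stand, without their counting error, and are not intervals. The authors' deposited log2 fold change of -8.14 (adjusted p 0.00103) has a library at 0 on one side and is no measure of the size of the difference.

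ERF113-like (Pbr037846) went the other way, from 4.86 FPKM with water (148 reads) to 42.4 FPKM with the yeast (1177 reads). Its Arabidopsis namesake, also called RAP2.6L, is known from stress responses, shoot regeneration and the healing of cut stems. The reads were 8.31 times as many with the yeast (interval 7.00 to 9.93), and the authors' deposited log2 fold change was 3.05, with an adjusted p of 0.00232. By level the gene ranked 13902 with water and 3140 with the yeast, the highest place of any of the 6 genes in either library.

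ERF114-like (Pbr010139) stood at 1.90 FPKM with water (112 reads) and at 20.6 FPKM with the yeast (1107 reads). In Arabidopsis ERF114 is known from bud and lateral root growth. The reads were 10.3 times as many with the yeast (interval 8.50 to 12.7), which overlaps the interval of ERF113-like, and the authors' deposited log2 fold change was 3.37, with an adjusted p of 0.000527. On the log2(FPKM + 1) scale both factors had nearly the same ratio, 2.90 and 2.89, the 38th and 39th highest of the 22603 genes.

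**Figure D2:**
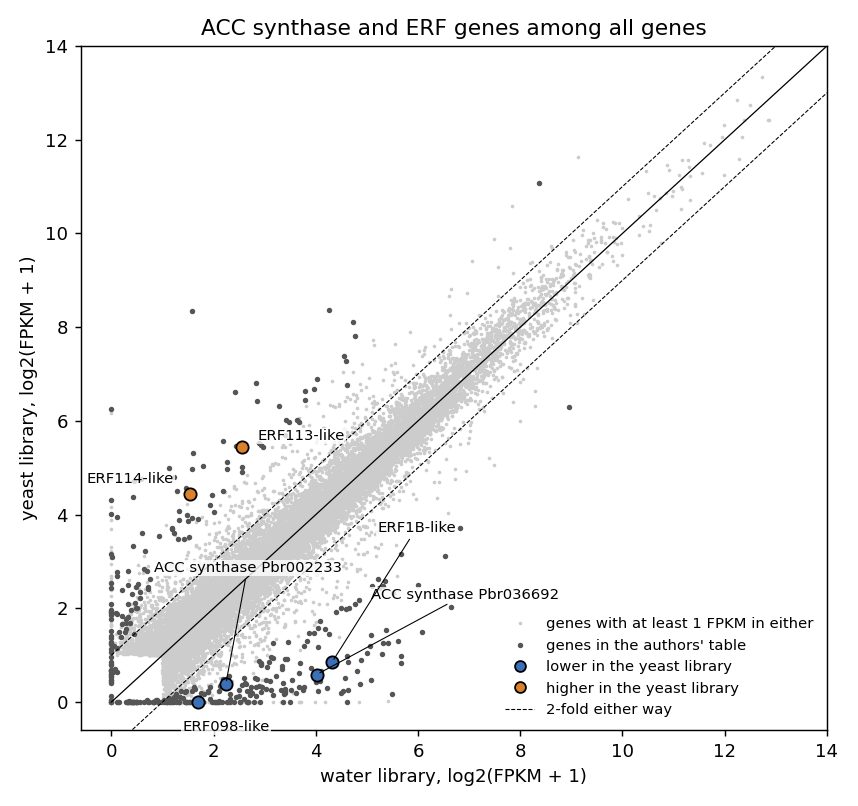
Level of every gene that reached 1 FPKM in at least 1 library (grey), as log2(FPKM + 1) in the water library (x axis) and the yeast library (y axis); dark points are the genes of the authors' deposited table, large points the 6 genes, the solid line equality and the broken lines a 2-fold difference on this scale. ERF113-like and ERF114-like lie above the band, at ratios of 2.89 and 2.90, and the other 4 lie below it, at ratios from -1.71 to -3.47.

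By level, ERF113-like and ERF114-like moved to the top with the yeast, while the other 4 genes kept their order among themselves in both libraries. With water the order was ERF1B-like, ACC synthase Pbr036692, ERF113-like, ACC synthase Pbr002233, ERF098-like and ERF114-like. Of the neighbours in this order, ERF113-like and Pbr002233 overlapped in their counting intervals (4.11 to 5.71 and 3.34 to 4.14 FPKM), and so did ERF098-like and ERF114-like (1.58 to 3.13 and 1.57 to 2.29 FPKM). With the yeast the order was ERF113-like, ERF114-like, ERF1B-like, Pbr036692, Pbr002233 and ERF098-like. There ERF113-like and ERF114-like stood apart from each other (40.0 to 44.9 and 19.4 to 21.9 FPKM) and from the rest, while ERF1B-like (0.467 to 1.28 FPKM) overlapped with Pbr036692.

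Among the 4 factors ERF1B-like was highest with water and ERF114-like lowest, and with the yeast both ERF113-like and ERF114-like stood above ERF1B-like and ERF098-like. With water the level of ERF1B-like was 3.89 times that of ERF113-like and 9.95 times that of ERF114-like. With the yeast the level of ERF113-like was 52.9 times that of ERF1B-like, and that of ERF114-like 25.7 times. Summed over the 4 factors the level was 27.9 FPKM with water and 63.8 FPKM with the yeast. ERF1B-like made up 67.7% of this sum with water and 1.26% with the yeast, and ERF113-like 17.4% and 66.4%. The mean log2 ratio on the log2(FPKM + 1) scale was 2.89 for the 2 higher factors and -2.59 for the 2 lower ones, a difference of 5.48. The genes were chosen for these directions, so the difference is a description.

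**Figure D3:**
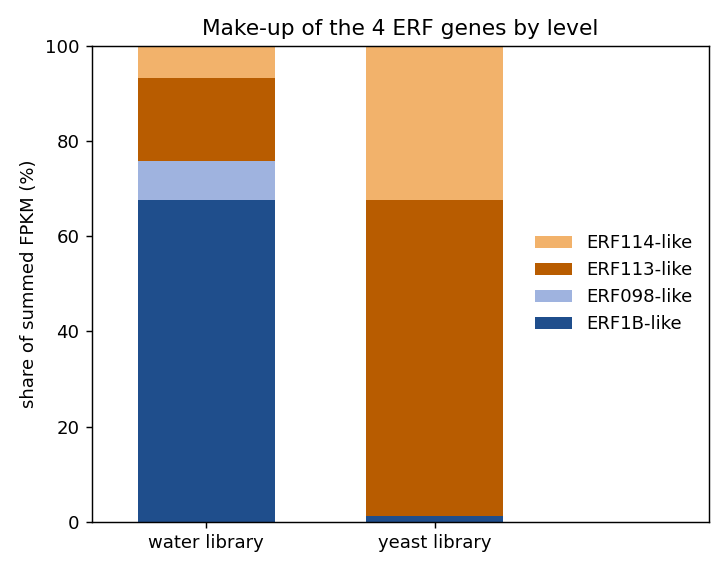
Share (percent, y axis) of each ERF gene in the summed FPKM of the 4 ERF genes, for the water library and the yeast library, 1 library each, without error bars. ERF1B-like (dark blue) fills 67.7% of the bar with water and 1.26% with the yeast, and ERF113-like with ERF114-like (orange shades) fill nearly all of the bar with the yeast.

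Further AP2/ERF genes in the authors' deposited table followed the same division by group. The table holds 9 genes whose description carries an AP2 or ERF term, 3 higher and 6 lower with the yeast, beside 143 higher (37.5%) and 238 lower among all 381 genes. The genes were sorted by the Arabidopsis group of their closest Swiss-Prot entry, a sorting made after the values were seen. All 5 genes of group IX were lower and all 3 of group X were higher. The 2 lower and 2 higher ERF genes chosen for these directions are among them, so part of this division was fixed by the choice. The ninth, WRI1-like (Pbr024732), belongs to the AP2 type of the family, known for oil synthesis in seeds, and had 29 reads with water and 0 with the yeast (0.261 FPKM and listed at 0, at least 9.25-fold lower). AP2/ERF genes outside the table carry no description and could not be counted, so the division holds for genes that the authors called and not for the groups as such. For the 6 genes of the list that reached 1 FPKM the median log2 ratio was -1.22, beside -1.59 over 319 such genes of the whole table.

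Group X also held a further ERF114-like gene, Pbr029833, which FPKM lists at 0 with water and which reached 0.943 FPKM with the yeast. It had 0 reads with water and 37 with the yeast, at least 12.9-fold higher, and so went with Pbr010139, the ERF114-like gene above. The summed level of the 3 group X genes was 6.76 FPKM with water and 64.0 FPKM with the yeast, from 260 and 2321 reads.

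In group IX the remaining genes were all low. ERF096-like (Pbr030540) had 24 reads with water and 0 with the yeast (1.70 FPKM and listed at 0), at least 7.65-fold lower. A pair described as AP2 domain class transcription factors, with Arabidopsis ERF5, a regulator of defence, as their closest Swiss-Prot entry, had 2 reads each with the yeast. Pbr035774 stood at 1.04 and 0.0254 FPKM (47 reads with water), 22.5 times as many reads with water (interval 5.89 to 191), and Pbr035788 at 0.802 and 0.0218 FPKM (44 reads with water), 21.0 times as many (interval 5.49 to 179). Their values are alike, and they may share reads. The 5 group IX genes summed to 24.7 FPKM with water and 0.850 FPKM with the yeast, and ERF1B-like gave most of both sums.

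The other genes found by a list for ethylene synthesis and signalling did not all go with ACC synthase. The ethylene list, which searched the authors' deposited annotation for synthesis enzymes, receptors and signalling proteins, found 4 genes in the table, 1 higher and 3 lower with the yeast, beside 143 higher and 238 lower (62.5%) in the whole table. Of the 3 lower ones 2 are the synthase pair, chosen for this direction. Beside the synthase pair these were ACC oxidase homologs, enzymes named for their likeness to ACC oxidase, whose part in ethylene synthesis was not shown here. Homolog 1-like (Pbr023062) was at 5.99 FPKM with water (246 reads) and 0.432 FPKM with the yeast (21 reads), 11.2 times as many reads with water (interval 7.17 to 18.4). Homolog 4-like (Pbr015355) went the other way, at 0.320 FPKM (15 reads) and 3.92 FPKM (164 reads), 11.4 times as many with the yeast (interval 6.73 to 20.9). Apart from these homologs the list found no ACC oxidase. No ethylene receptor, EIN2 or EIN3 type protein or CTR1 kinase was found in the table.

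Upstream of ACC synthase, the list of the methionine and S-adenosylmethionine cycle had 1 gene in the table, and it was higher with the yeast. S-adenosylmethionine synthase 2-like (Pbr026061), which makes the substrate of ACC synthase and of many methyltransferases, stood at 0.554 FPKM (39 reads) with water and 6.15 FPKM (351 reads) with the yeast, 9.41 times as many reads (interval 6.75 to 13.5). The lists for the removal of cyanide and the conjugation of ACC, and for polyamines, which also draw on S-adenosylmethionine, had 0 genes in the table.

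**Figure D4:**
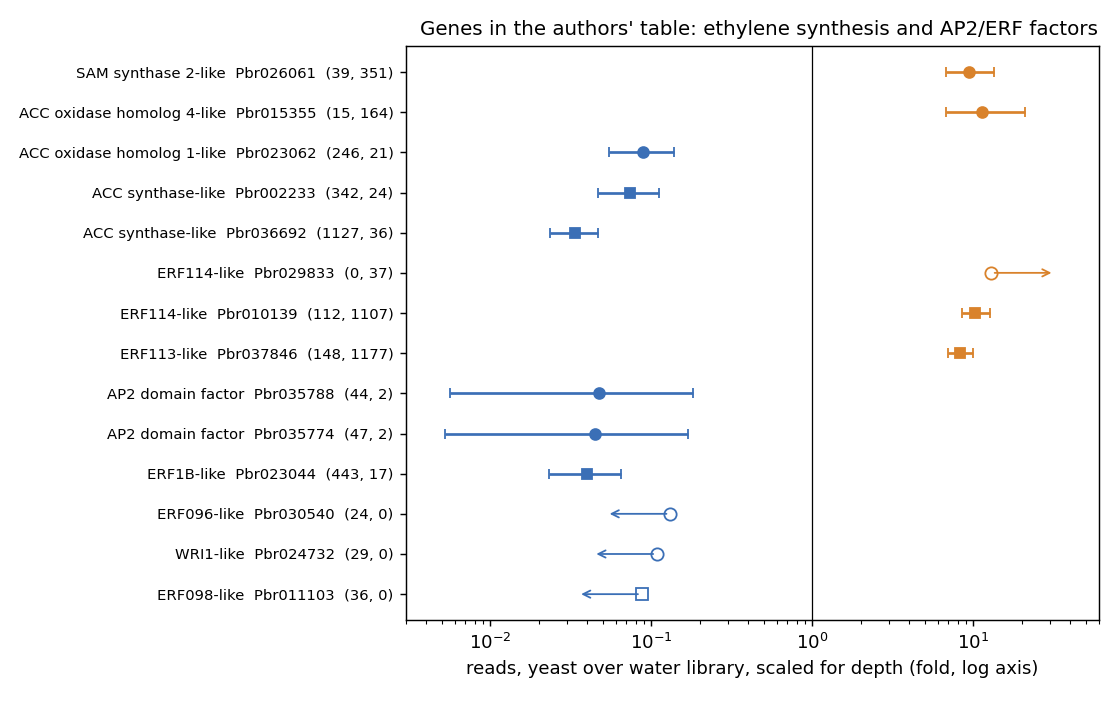
Reads in the yeast library over the water library, scaled for depth (fold, log axis), for the genes of the authors' deposited table in the lists of S-adenosylmethionine, ethylene and AP2/ERF factors; squares are the 6 genes, circles the others, bars exact 95% intervals (counting error only), open symbols with arrows bounds against a floor of 3 reads, and the reads with water and with the yeast stand in brackets. Genes named ERF113-like or ERF114-like, the S-adenosylmethionine synthase and an ACC oxidase homolog lie on the right, at 8.31-fold or more, and the others on the left.

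Further lists covered genes that stand near ethylene in the textbook pathway, and their counts stand beside a table in which 62.5% of all genes were lower. The list of ripening and abscission enzymes, which soften cell walls, had 8 genes in the table, 1 higher and 7 lower. The 6 of these that reached 1 FPKM had a median log2 ratio of -2.10, beside -1.59 for the whole table. By the authors' deposited log2 values its lowest was expansin-A4-like (Pbr013129), at 0.794 FPKM with water and listed at 0 with the yeast, with 25 reads with water and 0 with the yeast, at least 7.97-fold lower. On the log2(FPKM + 1) scale its ratio was only -0.84. By the same deposited values its highest was Pbr017522, with endoglucanase 1 as closest Swiss-Prot entry, which had 1 read with water, where FPKM lists it at 0, and 64 with the yeast (66.9 times as many, interval 11.6 to 2683). The list of kinases had 2 genes, both lower. MAP kinase kinase kinase 3-like (Pbr035710) had 159 reads with water and 6 with the yeast, 25.4 times as many with water (interval 11.4 to 70.1). The calcium-dependent kinase gene Pbr001322 had 601 and 63 reads, 9.13 times as many with water (interval 7.03 to 12.0). MAP kinases and calcium-dependent kinases are known in other plants to phosphorylate and stabilise ACC synthase. Pbr035710 is described as a MAP kinase kinase kinase and not as a MAP kinase. An action of either gene on ACC synthase was not tested.

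Of the defence proteins that ethylene and jasmonate switch on together, such as defensins, chitinases and osmotins, the table held 1 gene. Thaumatin-like protein 1a (Pbr032573), of the osmotin family, is listed at 0 FPKM in both libraries, yet the recovered reads were 141 with water and 13 with the yeast, 10.4 times as many with water (interval 5.88 to 20.0). The authors' deposited log2 fold change for this gene was -3.36, and its level per length cannot be given.

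Ontology terms that the ACC synthase genes or ERF1B-like carry were also found with other genes of the table. The term for the response to chitin, a fungal cell wall polymer, was carried by 7 genes, 0 higher and 7 lower, beside 87 higher and 171 lower among the 258 genes with any term. Besides the synthase pair these were both allene oxide synthase genes of jasmonate synthesis (Pbr006205, 133 reads with water and 15 with the yeast, and Pbr006204, 77 and 4), the kinase OXI1-like (Pbr031383, 260 and 11), NADPH:quinone oxidoreductase-like (Pbr015644, 479 and 65) and the calcium-binding CML19 (Pbr036909, 31 and 0). The response to ethylene was carried by 4 genes, all lower, the synthase pair and a CYP94C1-like pair, of the enzymes that oxidise active jasmonate (Pbr029505, 207 and 2 reads, and Pbr002629, 256 and 2). ERF1B-like shared its term for ethylene signalling with WRKY40 (Pbr022408, 415 and 47 reads) alone, and its term for jasmonate signalling with 8 further genes, 9 in all and all lower. ERF098-like and ERF113-like carried neither of these terms, and ERF114-like carried 0 terms. Some other terms of the synthase pair or ERF1B-like were mixed in direction. The defense response, a term of the synthase pair and ERF1B-like, was carried by 9 genes, 2 higher and 7 lower. The response to abscisic acid, a term of the synthase pair, was carried by 3 genes, 1 higher and 2 lower. Regulation of transcription, a term of ERF1B-like, was carried by 17 genes, 5 higher and 12 lower. All these terms were looked up after the values were seen.

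The genes of the table closest to each of the 6 in level were found by distance on the log2(FPKM + 1) scale over both libraries, which is a likeness over 2 samples and no more. Closest to ACC synthase Pbr036692 was PUB23 (Pbr035713, 15.0 FPKM with water and 0.536 FPKM with the yeast, distance 0.04), a ubiquitin ligase of a family that in Arabidopsis dampens immune responses, followed by a flavonol synthase 3-like gene (Pbr003488, 16.0 and 0.364 FPKM, distance 0.16). Closest to Pbr002233 were a tropinone reductase homolog (Pbr035873, 3.57 and 0.399 FPKM) and a further PUB23-like gene (XLOC_004507, 3.76 and 0.411 FPKM), both at a distance of 0.11. ERF1B-like lay closest to the JAZ repressor gene TIFY 10B-like (Pbr039229, 23.9 and 0.814 FPKM, distance 0.32) and then to PUB23 (distance 0.39).

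ERF098-like lay closest to CYP94C1-like (Pbr029505, 2.26 and 0.0230 FPKM, distance 0.03) and to 1 more PUB23-like gene (Pbr028069, 2.16 FPKM and listed at 0, distance 0.05). The recovered reads set the last apart from ERF098-like: it had 276 reads with water and 33 with the yeast, 8.00 times as many (interval 5.56 to 11.9), where FPKM lists 0. On the higher side, ERF113-like lay closest to a WAT1-related gene (Pbr037705, 3.55 and 46.4 FPKM, distance 0.39), of a family of membrane transporters, and to the PR10 allergen gene Pru ar 1-like (Pbr040353, 6.77 and 42.6 FPKM, distance 0.41). ERF114-like lay closest to a further WAT1-related gene (Pbr037685, 1.77 and 22.7 FPKM, distance 0.15) and to CYP84A1-like, of the ferulate hydroxylase family of lignin synthesis (Pbr022142, 1.52 and 15.8 FPKM, distance 0.41).

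The labelled tissue could not be checked against markers of fruit flesh, since only genes of the authors' deposited table carry a description. Among these, the list of cuticle and epidermis had 3 genes, all EP1-like secreted glycoproteins and all lower with the yeast, from Pbr038206 (91.5 and 7.68 FPKM) to Pbr038209 (17.6 and 0.224 FPKM). The lists of vascular tissue and photosynthesis had 0 genes. The list of fungal best hits had 1 gene, higher with the yeast (Pbr024253, 0.466 and 4.13 FPKM, 78 and 814 reads). It is described as a probable transposable element, with DEAD-box ATP-dependent RNA helicase 26 as its closest Swiss-Prot entry. Whether it is of fungal origin was not tested. The part of tissue make-up or of yeast RNA in the values of the 6 genes was not tested.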

How the data were processed

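With 1 library per treatment nothing was tested and no SD is given. The authors deposited FPKM values and, for 381 genes, log2 fold changes (yeast over water) with adjusted p-values, per the file headers. The submitters' processing notes name Bowtie 0.12.2. The counter, genome build and comparison tool are not given in these sources. Columns were mapped by the sample descriptions.

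Ratios were log2((yeast + 1)/(water + 1)) on FPKM, over genes that reached 1 FPKM in at least 1 library, with a 2-fold size rule. Reads were recovered after the data were seen. The value of 1 read came from genes listed at 0 in the other library, whose deposited values fell on whole steps (tolerance 0.001 reads) for 65 of 67 usable genes with water and 21 of 23 with the yeast. A step was taken as 1 read. Each deposited log2 value was then matched to the ratio of scaled whole reads plus 1, with fewer than 20000 reads in the lower library. A single pair matched for 341 genes, and 11 had none. Of the genes named here, Pbr002233, Pbr001322 and Pbr031383 matched further, far larger pairs too, and the smallest was used. Intervals are exact at 95% for the reads, Poisson for levels and binomial for read ratios. Those of levels are the FPKM value scaled by the limits of its reads. Recovery and size rule were tested on simulated data.

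The 6 genes and the 12 lists (text patterns matched to the deposited descriptions) were chosen with earlier results of these data known. Named genes were the 6, all genes of the table in the ethylene and AP2/ERF lists, the highest and lowest of each other list, and the 2 genes with an informative description nearest to each of the 6. Genes under ontology terms were named after their values were seen. Python 3.11.15 and scipy 1.17.1 were used.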

Additional observations from a re-analysis of the deposited data

How the results depend on the processing

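The log2 ratios of the 6 genes were recomputed 34 times, with a pseudocount of 0.1 or none, with each library divided by its FPKM sum or its median, from the authors' deposited log2 values and, chosen after seeing the data, from whole reads. All 34 kept their sign and stayed past 2-fold. The whole reads were recovered from the deposited log2 values, so they repeat those values and are no separate check. The 6 genes were chosen with their deposited directions known. ERF098-like, at 0 with the yeast, has no value without a pseudocount, and none from reads. The difference between the 2 higher and the 2 lower ERF genes was 5.48 and became 7.72 with a pseudocount of 0.1. The 750 genes at least 2-fold higher and 678 lower became 1347 and 1100 with a pseudocount of 0.1, and 470 and 382 with at least 5 FPKM in either library. The scaling by sum moved them to 643 and 765, and shifted the median ratio of all genes to -0.0899 from 0.0052. With at least 5 FPKM, the ethylene list had 0 higher and 2 lower genes and the AP2/ERF list 2 higher and 1 lower, since fewer genes are counted. The AP2/ERF list had 3 lower genes without genes listed at 0, and 3 with at least 1 read in both libraries. No paired analysis was possible because each group has 1 library. No library could be left out for the same reason. Depth limits the yeast value of ERF098-like most, with 0 reads and a bound only, and then those of ERF1B-like and the ACC synthase genes, which rest on 17, 24 and 36 reads.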

Other observations

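Recovered reads and FPKM did not always go together at 0. Of the 42 genes of the authors' deposited table listed at 0 FPKM in the water library, 40 had a whole-read pair, and 21 of these had 1 read or more, up to 2172 reads. In the yeast library 86 genes were listed at 0, 79 had a pair, and 21 of these had 1 read or more, up to 9607 reads. More than 10 reads lay behind 7 such zeros with water and 5 with the yeast. The AP2/ERF genes listed at 0 in a library (ERF098-like, ERF096-like, WRI1-like and the ERF114-like gene Pbr029833) all had 0 recovered reads there.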
